A study of Mus musculus with 23 samples.

Results

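The phase II conjugation enzymes described here are the glutathione S-transferases, the UDP-glucuronosyltransferases and the sulfotransferases of the mouse. They were taken from the authors' table by name: every protein-coding gene whose symbol begins with *Gst* and a class letter and number, *Mgst*, *Ugt1*, *Ugt2*, *Ugt3*, or *Sult* and a number. This gave 65 of 48895 genes: 21 cytosolic *Gst* genes, 3 membrane-bound *Mgst* genes, 20 *Ugt* genes and 21 *Sult* genes. No measured value entered the choice.

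The libraries came from male BALB/c mice that were 4 to 6 weeks old when the experiment began. In 9 of them, CT26 cells, an established mouse colon carcinoma line, were injected into the serosa of the cecum. From each of these mice a primary tumor and a liver, called pre-metastatic liver, were taken 3 weeks later. The 5 control livers came from sham-operated mice that received serum-free medium in place of cells. The study's histology found no metastasis in these livers. All tumors derive from a single cell line, and the sources used here name no engineered allele in any animal. Poly(A) RNA of bulk tissue was sequenced, so fewer cells of a type and less RNA per cell cannot be told apart. RPKM, the unit of the levels below, is the count of a gene divided by its length and by the library total, so that levels of different genes can be set side by side. All 10 hepatocyte markers averaged at least 1 RPKM in both kinds of liver, and 8 of them did in the tumors. Their levels differed widely: they summed to 9.55 to 373 RPKM in the tumors and 49270 to 95117 RPKM in pre-metastatic liver. Of 10 intestinal epithelial markers, only *Krt20*, at 27.8 to 113 RPKM, and *Lgals4*, at 1.14 to 5.47 RPKM, averaged at least 1 RPKM in the tumors. Libraries held 44587556 to 79773163 counts.

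Phase II enzymes make drugs, hormones, bile pigments and reactive products of metabolism more soluble by adding a large polar group. Glutathione S-transferases add glutathione, UDP-glucuronosyltransferases add glucuronic acid and sulfotransferases add sulfate. The liver, and above all the hepatocyte, is the main site of these reactions, and many of the genes are controlled by the xenobiotic receptors CAR and PXR, by the aryl hydrocarbon receptor and by the oxidative stress factor NRF2.

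Before the comparisons, 4 libraries need to be named because they stood apart. Control liver C5 was above the other 4 control livers for 20 of 41 loci tested in the livers (counting the *Ugt1a* genes once) and at least 2-fold above their mean for 10 of these. *Gstp1* was at 1239.5 RPKM in C5 against 294 to 518 RPKM in the others, and *Gsta2*, an alpha class transferase, at 26.8 against 3.07 to 6.54 RPKM. *Cyp3a11*, a target of PXR and CAR, was also highest in C5, at 5376 RPKM against 892 to 2359 RPKM, and *Cyp2b10* was at 45.2 against 2.61 to 24.5 RPKM; whether these values are linked was not tested. Among the tumors, M10 and M12 held more hepatocyte marker RNA than the rest, at 0.264% and 0.438% of the summed level in the liver of the same mouse, and tumor M2 held the most *Epcam*, an epithelial marker, at 1.88 RPKM (median of the tumors 0.0622). Results that rest on these libraries are given without them as well.

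In control liver the most abundant member was *Mgst1*, which encodes a membrane-bound transferase of the endoplasmic reticulum and mitochondria, at 1632 ± 222 RPKM (SD, n = 5). The pre-metastatic livers held 1632 ± 463 RPKM (n = 9), so the means differed by less than the spread, and the liver of mouse M6 was the lowest of all livers at 835 RPKM. *Gstp1*, *Gsta3* and *Gstm1*, of the pi, alpha and mu classes, made up 29.3%, 20.01% and 16.2% of the cytosolic *Gst* RPKM of control liver and 35.1%, 19.6% and 16.0% of that of pre-metastatic liver. Of the *Ugt2* and *Ugt3* genes, *Ugt2b36* held the largest share, 27.1% and 25.97%. Among the sulfotransferases, *Sult2a8*, of the class that acts on steroids and bile acids, held 44.2% in control and 69.3% in pre-metastatic liver. The summed RPKM of each family overlapped between the kinds of liver: cytosolic *Gst* summed to 2003 ± 625.4 in control and 2080 ± 589 in pre-metastatic liver, *Mgst* to 1652 ± 222 and 1649 ± 463, *Ugt2* and *Ugt3* to 966 ± 243 and 918 ± 316, and *Sult* to 410.0 ± 48.5 and 314 ± 129.

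Below the level of these sums, single members moved in both directions. Of the 65 members, 48 had at least 10 counts in at least 5 livers and could be tested with edgeR's quasi-likelihood test, with Benjamini-Hochberg adjustment over all 16987 genes. At an adjusted p below 0.05, 5 members were higher and 8 lower in pre-metastatic than in control liver, 13 in all or 27.1% of those tested. Over all genes tested, 31.0% were called, 17.7% as higher and 13.3% as lower, so the share of members called lay near that background. The lower count depends on how the clock phase, read from 6 clock genes, is handled. In the 9 livers of the early phase, 5 members were higher and 14 lower, 10.4% and 29.2% of those tested, against 14.4% and 10.7% of all genes. With the phase as a term in the fit, 5 were higher and 16 lower, 10.4% and 33.3%, against 17.3% and 13.6% of all genes. The added calls are mostly *Ugt1a* rows, which hold largely the same reads: counted as 1 locus, the lower calls were 8 and 9 loci, beside the 8 of the fit without the phase. The 5 higher members were not the same in each fit. *Gstm2*, *Gstm5*, *Gstm6* and *Ugt2b37* were called in all of them. The fifth was *Sult1c2* without the phase, *Sult3a1* in the early phase and *Gstm7* with the phase as a term. The median log2 fold change was -0.15 over the members tested and 0.01 over all genes. With the *Ugt1a* rows counted once, it was -0.08 over 41 loci. With a log2 fold change of at least 1 asked for as well, 4 members were higher and 5 lower (9.48% and 2.58% of all genes, 12.1% in all). The groups did not overlap for 6 members, 12.5% of those tested, against 10.9% of all genes: 2 were higher (4.85% of all genes) and 4 lower (6.09%).

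**Figure D1:**
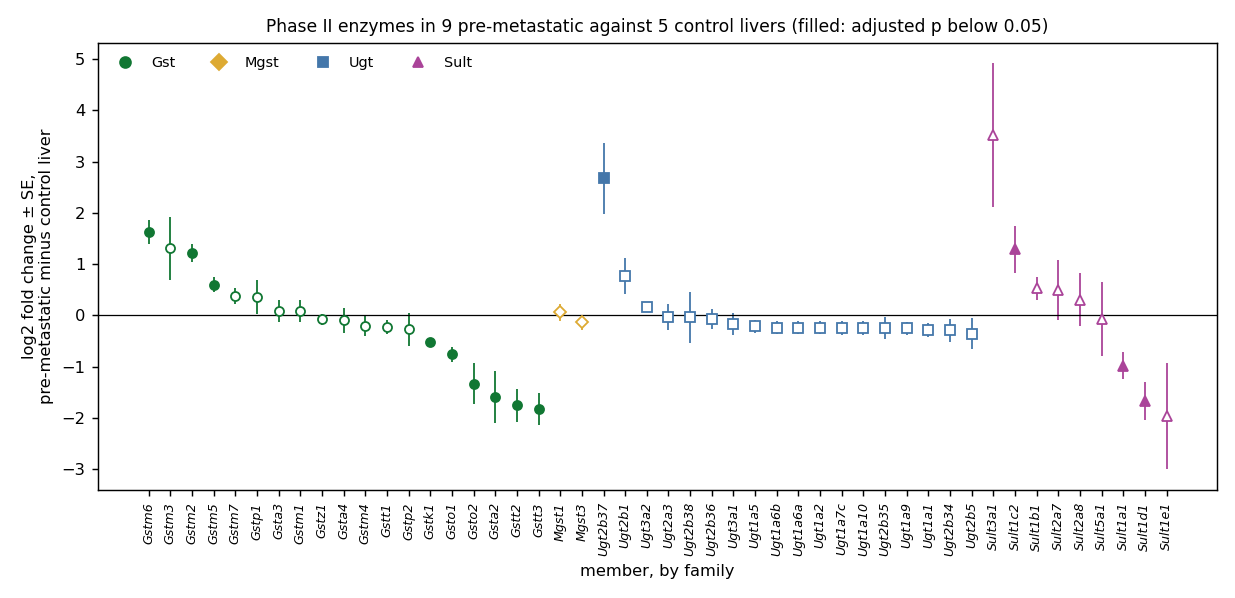
Log2 fold change of each of the 48 members tested, pre-metastatic minus control liver, with its standard error from edgeR (vertical axis), ordered by family and size (horizontal axis). Filled symbols mark the 13 members called, from *Ugt2b37* at 2.68 to *Gstt3* at -1.83; the 8 *Ugt1a* points rest largely on the same reads.

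By number of genes, most rises were in the mu class. The largest called rise was that of *Ugt2b37*, a gene near the floor that reached the count minimum through the pre-metastatic livers. Of the 7 *Gstm* genes, which lie next to each other on chr3:107895854-108045082 (mm10), 3 were higher in pre-metastatic liver and none was lower. *Gstm2* measured 23.1, 23.9, 29.8, 30.0 and 30.4 RPKM in the 5 control livers and 38.4 to 106 (median 58.4) RPKM in the 9 pre-metastatic livers. Every pre-metastatic liver was above every control liver, and the rise was 2.32-fold (log2 fold change 1.22 ± 0.17 (SE), edgeR adjusted p = 0.000135). *Gstm6* also showed no overlap, with 11.9, 16.8, 18.6, 18.9 and 21.4 RPKM in control and 25.2 to 84.8 (median 59.1) RPKM in pre-metastatic liver (log2 fold change 1.62 ± 0.23 (SE), edgeR adjusted p = 0.000183). *Gstm5* rose less, from 7.71 ± 1.88 to 10.9 ± 1.09 RPKM, and its groups overlapped through control liver C4 at 10.4 RPKM (log2 fold change 0.60 ± 0.15 (SE), edgeR adjusted p = 0.00620).

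The other mu class genes were not called in the main fit. *Gstm1*, the most abundant of them, had means of 325 and 333 RPKM in control and pre-metastatic liver (log2 fold change 0.09, edgeR adjusted p = 0.789), and C5 alone held 576 RPKM. *Gstm3* measured 0.758 to 3.83 RPKM in control and 0.970 to 10.5 RPKM in pre-metastatic liver, where M5, M8 and M4 held the 3 highest values (log2 fold change 1.31, edgeR adjusted p = 0.1196). Its highest control value was that of C5, and without C5 it was called as higher (log2 fold change 2.01, edgeR adjusted p = 0.0329). *Gstm7* and *Gstm4* had log2 fold changes of 0.38 and -0.21 (edgeR adjusted p = 0.0679 and 0.448). With the clock phase as a term in the fit, *Gstm7* was called as higher. In *Gstm3*, 13.8% of the 100-base stretches of its transcripts also occur in another gene, so its reads may be shared, while for *Gstm2* this share was 0.357%.

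The falls were largest in the theta class, whose enzymes act on small halogenated compounds. *Gstt2* measured 50.5, 58.9, 59.1, 63.4 and 64.3 RPKM in control liver and 8.08 to 39.2 (median 12.6) RPKM in pre-metastatic liver. The groups did not overlap, and the fall was 3.39-fold (log2 fold change -1.76 ± 0.32 (SE), edgeR adjusted p = 0.000981). Within the pre-metastatic livers, the 4 of the late clock phase held 15.5 to 39.2 RPKM and the 5 of the early phase 8.08 to 12.6 RPKM. The phase was not part of the design. It is read from an index of 6 clock genes, split at its widest gap, and places C7, M1, M2, M10 and M12 in the late phase. The place of C7 is uncertain: its index of 0.98 lay between the early livers (at most -0.10) and the late pre-metastatic livers (2.05 to 2.92). Fits with C7 in the early phase were not run. Among early-phase livers alone, the log2 fold change of *Gstt2* was -2.55.

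*Gstt3*, its neighbour on chr10:75774122-75837419 (mm10), measured 9.51, 10.2, 14.7, 20.3 and 31.1 RPKM in control and 2.14 to 9.71 (median 4.64) RPKM in pre-metastatic liver, with a fall of 3.55-fold (log2 fold change -1.83 ± 0.30 (SE), edgeR adjusted p = 0.000498). Only M2, at 9.71 RPKM, reached into the control range. *Gstt1* overlapped more widely, with means of 69.6 and 56.4 RPKM (log2 fold change -0.23, edgeR adjusted p = 0.229), and *Gstt4* was at 0 in all livers.

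Members of the kappa and omega classes fell as well. *Gstk1*, the kappa class enzyme of mitochondria and peroxisomes, measured 76.8, 76.9, 78.5, 79.3 and 83.4 RPKM in control liver and 40.6 to 65.9 (median 51.995) RPKM in pre-metastatic liver. The control livers lay close together and all pre-metastatic livers below them (log2 fold change -0.53 ± 0.09 (SE), edgeR adjusted p = 0.000426). *Gsto1*, an omega class enzyme that acts as a thioltransferase and dehydroascorbate reductase, measured 42.8, 45.8, 50.7, 56.6 and 63.7 RPKM in control and 21.4 to 42.7 (median 26.6) RPKM in pre-metastatic liver. Its groups did not overlap, although M2 reached 42.7 RPKM against 42.8 RPKM in C7 (log2 fold change -0.76 ± 0.15 (SE), edgeR adjusted p = 0.00155). *Gsto2*, from the neighbouring gene on chromosome 19, was low in all livers, with 0.197, 0.379, 0.415, 0.466 and 0.558 RPKM in control and 0.0446 to 0.272 (median 0.144) RPKM in pre-metastatic liver. Its groups overlapped (log2 fold change -1.33 ± 0.39 (SE), edgeR adjusted p = 0.0183), and the call was lost without control liver C1 (log2 fold change -1.15, adjusted p = 0.0603) and in the early-phase livers (adjusted p = 0.0564).

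*Gsta2* fell from 9.12 ± 9.96 to 2.97 ± 2.18 RPKM (log2 fold change -1.59 ± 0.50 (SE), edgeR adjusted p = 0.0255), but this rests on C5. Without C5 the log2 fold change was -0.65 and the edgeR adjusted p was 0.265, and 28.4% of the *Gsta2* stretches occur in other genes. The remaining abundant glutathione transferases were not called in the livers. *Gsta3* had means of 401 and 407 RPKM, and *Gstz1*, the maleylacetoacetate isomerase of tyrosine breakdown, had 257 and 231 RPKM. *Gstp1* had 588 and 730.4 RPKM (log2 fold change 0.36, edgeR adjusted p = 0.435) and a wide spread in both groups: 294 to 1239.5 RPKM in control and 328 to 1114 RPKM in pre-metastatic liver. Without C5 its log2 fold change was 0.82 (edgeR adjusted p = 0.0509).

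**Figure D2:**
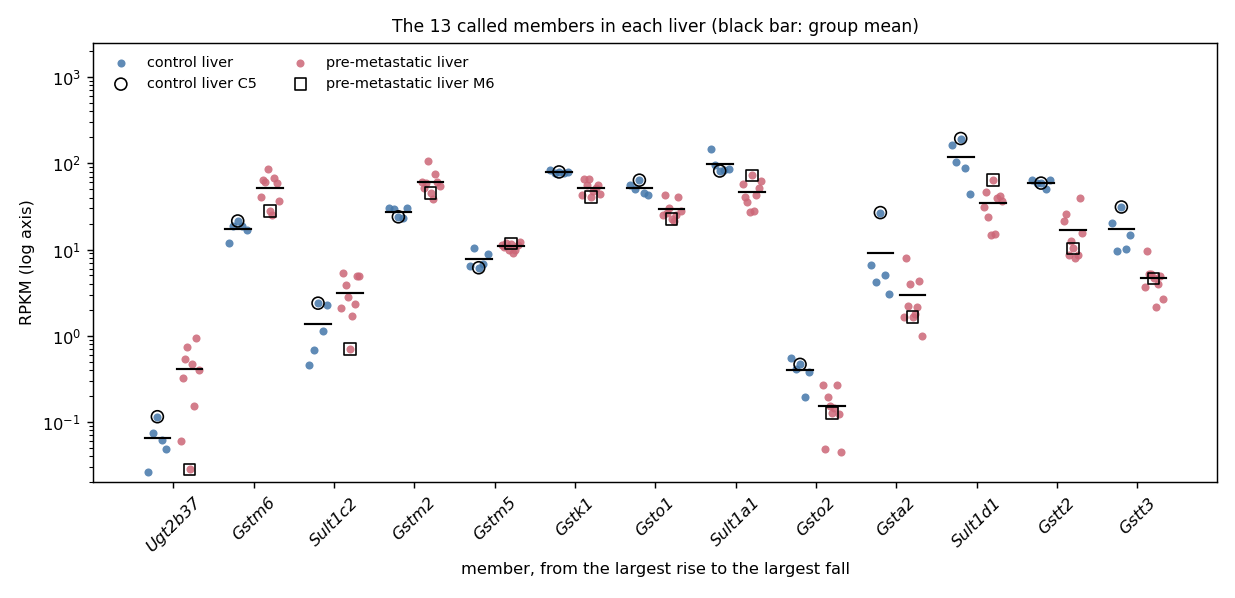
RPKM on a log axis of the 13 called members in each control liver (blue) and each pre-metastatic liver (red), with group means as black bars, control liver C5 circled and pre-metastatic liver M6 boxed. For *Gstm2*, *Gstm6*, *Gstk1*, *Gsto1*, *Sult1a1* and *Gstt2* the groups do not overlap, while C5 lies far above the other control livers for *Gsta2*.

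Sulfotransferases of class 1 were lower in pre-metastatic liver for 2 members and higher for 1. *Sult1a1*, which sulfates phenols, measured 81.3, 82.5, 84.9, 95.0 and 147 RPKM in control liver and 27.0 to 72.7 (median 43.2) RPKM in pre-metastatic liver. No value overlapped (log2 fold change -0.99 ± 0.27 (SE), edgeR adjusted p = 0.0109), and the liver of C1 stood above the rest of its group. *Sult1d1*, which sulfates catecholamines, measured 44.5, 88.9, 104, 161 and 194 RPKM in control and 14.6 to 63.6 (median 36.5) RPKM in pre-metastatic liver, a fall of 3.20-fold (log2 fold change -1.68 ± 0.37 (SE), edgeR adjusted p = 0.00349). Control liver C7, the only one placed in the late phase, lay within the pre-metastatic range at 44.5 RPKM.

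*Sult1c2* measured 0.463, 0.683, 1.12, 2.26 and 2.39 RPKM in control liver and 0.703 to 5.28 (median 2.84) RPKM in pre-metastatic liver, where 5 of the 9 livers were above all control livers (log2 fold change 1.29 ± 0.46 (SE), edgeR adjusted p = 0.0448). This call was the least steady of the 13: it was lost in 8 of the 14 fits that left out 1 liver, with a largest adjusted p of 0.108 without C4, and in the early-phase livers (adjusted p = 0.170). The 8 livers were C1, C4, C6, M2, M4, M5, M10 and M12.

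Among the remaining sulfotransferases, *Sult1b1*, *Sult2a7*, *Sult2a8* and *Sult5a1* were not called. *Sult2a8* measured 99.8 to 283 RPKM in control and 11.4 to 429 RPKM in pre-metastatic liver, with M6 far below the next lowest liver, M12 at 83.3 RPKM. *Sult1e1*, the estrogen sulfotransferase, measured 0.613 to 11.5 RPKM in control and 0.0287 to 4.71 RPKM in pre-metastatic liver, led by C1 and M6 (log2 fold change -1.97, edgeR adjusted p = 0.163). *Sult3a1* was at 0 to 0.370 RPKM in control, with C7 highest, and at 0.0570 to 5.24 RPKM in pre-metastatic liver, with M6 highest (log2 fold change 3.52 ± 1.41, edgeR adjusted p = 0.0699). It was called as higher without C7 (log2 fold change 6.57, edgeR adjusted p = 0.0175) and in the early phase (7.18, adjusted p = 0.0195). Of the 21 *Sult* genes, 9 passed the count minimum; *Sult1c1*, *Sult2a3* and *Sult2a4* were at 0 in every library.

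Of the UDP-glucuronosyltransferases, 1 of the 18 tested was called. *Ugt2b37* measured 0.0264, 0.0484, 0.0625, 0.0747 and 0.115 RPKM in control liver and 0.0284 to 0.948 (median 0.405) RPKM in pre-metastatic liver. It stayed below 1 RPKM in every liver, and 7 of 9 pre-metastatic livers were above all control livers (log2 fold change 2.68 ± 0.69 (SE), edgeR adjusted p = 0.00880). Control livers held 3 to 13 counts, so that it could be tested depended on the group where it was high. The abundant *Ugt2* genes, which conjugate steroids and bile acids and lie together on chr5:86889770-87424203 (mm10), overlapped between the groups. *Ugt2b1* had means of 92.3 and 153 RPKM (log2 fold change 0.77, edgeR adjusted p = 0.107) and *Ugt2b5* of 203 and 153 RPKM (log2 fold change -0.36, adjusted p = 0.389). *Ugt2b36* had 262 and 238 RPKM. *Ugt3a2* varied least of the *Ugt* genes, with 114 to 157 RPKM in control and 134 to 159 RPKM in pre-metastatic liver (edgeR adjusted p = 0.169).

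The 8 *Ugt1a* genes need to be read as 1 locus. On chr1:88055411-88220002 (mm10, forward strand) each has its own promoter and first exon, spliced to the same last exons, and *Ugt1a1* encodes the enzyme that conjugates bilirubin. In every liver most of the count was common to the 8 rows: the lowest row held 23368 to 37060 reads in control liver and 15095 to 30823 reads in pre-metastatic liver, and *Ugt1a2*, *Ugt1a7c* and *Ugt1a10* exceeded it by at most 1.02% in any liver. The rows therefore hold largely the same reads, and 8 rows that differ in the same way are 1 difference. The mean of the 8 rows was 178 ± 31.4 RPKM in control and 141 ± 25.2 RPKM in pre-metastatic liver. None of the rows was called (log2 fold changes -0.28 to -0.21, edgeR adjusted p = 0.148 for *Ugt1a1* and 0.227 for *Ugt1a5*). In the 9 early-phase livers *Ugt1a1* was lower in pre-metastatic liver (log2 fold change -0.47, adjusted p = 0.0258), as it was with the phase as a term in the fit (log2 fold change -0.40, adjusted p = 0.0129), and all rows but *Ugt1a5* were called with it in the early phase.

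What each row held beyond the lowest row of the same library lies outside the exons common to all rows. It is given here as a description, chosen after the values were seen, and rows can still share some of it: 51.0% of the 100-base stretches of *Ugt1a7c* occur in *Ugt1a6a*. In control liver *Ugt1a1* exceeded the lowest row by 41.8% to 46.6% (10651 to 17252 reads), *Ugt1a6b* by 5.86% to 7.54%, *Ugt1a6a* by 5.21% to 6.38% and *Ugt1a9* by 1.71% to 2.55%. In pre-metastatic liver *Ugt1a1* exceeded it by 34.8% to 48.4%, *Ugt1a6b* by 5.62% to 8.62%, *Ugt1a6a* by 4.45% to 7.56% and *Ugt1a9* by 0.924% to 2.002%. *Ugt1a5* was the row whose percentages separated the groups: 0.0432% to 0.620% in control liver against 0.749% to 8.41% in pre-metastatic liver, with M6 highest. Its reads overlapped slightly, at 16 to 172 in control and 171 to 1644 in pre-metastatic liver. The lowest row, to which the percentages refer, had a median of 27763 reads in control and 22151 reads in pre-metastatic liver. In the tumors the order was another one. *Ugt1a7c* exceeded the lowest row by 25.1% to 44.05% and *Ugt1a6a* by 17.0% to 31.6%, while *Ugt1a1* exceeded it by at most 1.95% (42 reads), *Ugt1a9* by at most 6 reads and *Ugt1a5* by at most 6 reads.

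**Figure D3:**
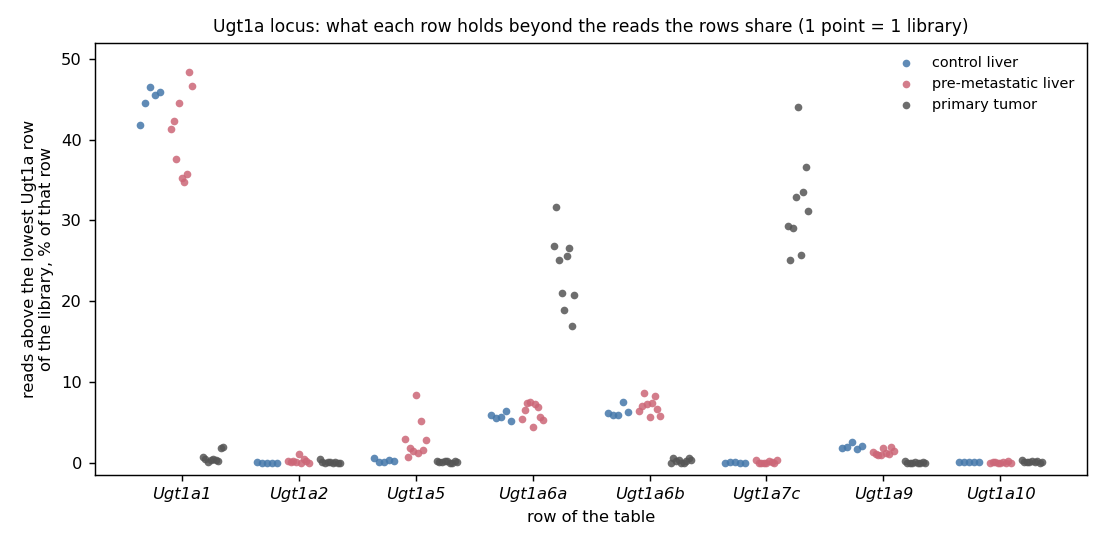
Reads of each *Ugt1a* row above the lowest row of the same library, as a percentage of that lowest row (vertical axis), for control liver (blue), pre-metastatic liver (red) and primary tumor (grey), 1 point per library. *Ugt1a1* stands at 34.8% to 48.4% in the livers and at most at 1.95% in the tumors, whereas *Ugt1a7c* stands at 25.1% to 44.05% in the tumors and at most at 0.329% in the livers.

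Because these first exons are read from separate promoters, the sequences upstream of 4 of them are shown. Each is the 250 bases before the transcription start in RefSeq (GRCm38.p6, the same assembly as mm10), 5′ to 3′ on the forward strand, with capitals marking matches, on either strand, to the aryl hydrocarbon receptor core GCGTG.
Ugt1a7c (chr1:88094751-88095000): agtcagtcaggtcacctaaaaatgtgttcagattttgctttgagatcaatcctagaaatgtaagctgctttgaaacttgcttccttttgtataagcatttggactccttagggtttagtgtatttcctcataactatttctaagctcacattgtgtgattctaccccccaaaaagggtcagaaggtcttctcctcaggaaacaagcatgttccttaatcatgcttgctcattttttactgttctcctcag
Ugt1a6a (chr1:88134559-88134808): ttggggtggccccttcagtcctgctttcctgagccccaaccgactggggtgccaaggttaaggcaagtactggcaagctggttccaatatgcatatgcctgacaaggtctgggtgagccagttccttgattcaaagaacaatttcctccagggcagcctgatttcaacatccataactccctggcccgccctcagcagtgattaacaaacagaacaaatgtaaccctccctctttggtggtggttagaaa
Ugt1a5 (chr1:88165762-88166011): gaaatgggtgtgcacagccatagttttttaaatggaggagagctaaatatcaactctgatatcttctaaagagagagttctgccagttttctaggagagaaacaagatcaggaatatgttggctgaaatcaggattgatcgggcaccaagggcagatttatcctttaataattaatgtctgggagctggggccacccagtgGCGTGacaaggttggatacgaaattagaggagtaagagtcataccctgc
Ugt1a1 (chr1:88211709-88211958): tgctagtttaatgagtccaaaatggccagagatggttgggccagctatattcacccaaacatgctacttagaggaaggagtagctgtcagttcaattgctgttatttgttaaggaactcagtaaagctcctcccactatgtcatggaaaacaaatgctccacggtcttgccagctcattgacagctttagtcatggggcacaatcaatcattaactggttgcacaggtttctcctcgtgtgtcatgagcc
The window of *Ugt1a5* holds the GCGTG core, and those of *Ugt1a1*, *Ugt1a6a* and *Ugt1a7c* hold neither it nor the other motifs reported here. GCGTG is in 28.2% of all promoters, and whether it has a part in the *Ugt1a5* reads was not tested.

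The same search was made for all members. RefSeq promoters of full length were at hand for 57 of the 65 members, 69 promoters in all, and for 32851 promoters of all genes. The antioxidant response element core TGACNNNGC, recognised by NRF2, was in 4 of the 69 member promoters (*Gsta3*, *Gstm5*, *Gstm7* and *Mgst1*) against 10.2% of all promoters, both strands searched. GCGTG was in 10 of the 69 against 28.2% of all, so both were less frequent among the members than among all promoters. The C/EBP motif TTGCNNCAA was in 2 of the 69 (*Gstt1* and *Ugt2b35*) against 1.74% of all, which is more frequent but rests on 2 promoters. In *Gstm5* the TGACNNNGC and one GCGTG match share bases. A promoter of a member that fell in pre-metastatic liver and one of the most abundant member are shown in the same way, both read in the direction of transcription, with matches to the motifs searched in capitals.
Sult1d1 (chr5:87569007-87569256, reverse strand): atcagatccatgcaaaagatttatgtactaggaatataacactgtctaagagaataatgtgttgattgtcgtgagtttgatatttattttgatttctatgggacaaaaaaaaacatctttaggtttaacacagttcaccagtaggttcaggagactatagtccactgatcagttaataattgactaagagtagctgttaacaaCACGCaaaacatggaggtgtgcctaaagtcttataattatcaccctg
Mgst1 (chr6:138140277-138140526, forward strand): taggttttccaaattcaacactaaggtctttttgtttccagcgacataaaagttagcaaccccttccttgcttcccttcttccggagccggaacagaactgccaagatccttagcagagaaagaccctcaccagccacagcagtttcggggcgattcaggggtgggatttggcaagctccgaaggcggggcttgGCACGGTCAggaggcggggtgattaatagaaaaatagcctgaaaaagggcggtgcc
*Sult1d1* holds the GCGTG core, and *Mgst1* holds the TGACNNNGC core. The promoters of *Gstm2* and *Gstm6*, which rose without overlap, hold none of these 3 motifs, which says only that these letters are not in those windows.

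The livers of tumor-bearing mice differed among themselves. Among the 9 of them, M6 had the lowest value for 17 of the 41 loci and M7 for 11, whereas M2 had the highest for 15 and M5 for 10. *Mgst1*, *Sult2a8* and *Ugt2b35* were lower in M6 than in any other liver, at 835, 11.4 and 14.4 RPKM, while the 10 hepatocyte markers summed to 95117 RPKM, the highest of all livers. The summed RPKM of 8 genes of CAR, PXR and their targets was lowest in M6, at 231, and highest among pre-metastatic livers in M2, at 1158, and M5, at 885. Control livers summed to 1299 to 6120. Whether the members follow these sums was not tested.

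Genes that supply or handle the conjugates were read from lists. Of 10 genes of glutathione supply, 8 were tested: *Gss*, glutathione synthetase, and *Chac1*, which breaks glutathione down, were higher in pre-metastatic liver, and *Gsr*, *Cth* and *Ggt6* were lower. *Chac1* rose from 0.355 to 6.59 RPKM (log2 fold change 4.33, edgeR adjusted p = 0.000535), and *Cth*, which makes cysteine, fell from 333 to 119 RPKM (-1.41, adjusted p = 0.000224). The list's median log2 fold change was -0.11, against 0.01 over all genes. For UDP-glucuronate supply, 2 of 6 genes were higher (*Pgm1* and the transporter gene *Slc35d2*, from 13.8 to 24.4 RPKM) and none lower. For the sulfate donor PAPS, *Papss1* and *Slc35b3* of 6 genes were higher and *Bpnt1* lower.

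Export and regulation changed in single genes as well. Of 7 exporters, *Abcc1* and *Abcc5* were higher and *Abcc3* was lower, the last falling from 84.2 to 25.9 RPKM (log2 fold change -1.65 ± 0.25, adjusted p = 0.000251, edgeR). Of 3 hydrolase genes tested, both epoxide hydrolase genes fell: *Ephx1* from 181 to 89.9 RPKM and *Ephx2* from 288 to 122 RPKM. Among other conjugating enzymes, the methyltransferase gene *Gnmt* fell from 1782 to 663 RPKM. Of 9 NRF2 list genes tested, *Nqo1*, *Srxn1*, *Txnrd1* and *Gsr* fell and none rose, with *Nqo1* going from 4.87 to 2.07 RPKM (log2 fold change -1.15 ± 0.19, adjusted p = 0.000390). Of 8 genes of the CAR and PXR list, *Cyp3a11* fell from 2218 to 272 RPKM (-3.00 ± 0.59, adjusted p = 0.00152) and *Cyp2b10* from 18.9 to 0.435 RPKM (-5.47 ± 0.67, adjusted p = 6.55e-05), while the receptor genes *Nr1i3* and *Nr1i2* were not called. Of 6 aryl hydrocarbon receptor list genes tested, *Cyp1a2* and *Tiparp* rose. *Hnf4a*, which encodes a nuclear receptor of hepatocytes, fell from 237 to 136 RPKM.

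Markers of other cells moved with the same groups. Of 7 leukocyte markers tested, 6 were higher in pre-metastatic liver, and their summed RPKM was 29.5 to 61.8 in control against 76.3 to 223 in pre-metastatic liver. Of 6 fibroblast markers, the 3 collagen genes were higher. Of 5 bile duct markers tested, *Krt19*, *Krt7* and *Spp1* were higher and none was lower, and the 6 on the list summed to 14.4 to 21.3 RPKM in control and 37.5 to 135 RPKM in pre-metastatic liver, without overlap. Of 6 intestinal epithelial markers tested, *Krt19*, *Krt20* and *Vil1* were higher and *Fabp2* was lower; the 10 on the list summed to a median of 206 RPKM in control and 67.3 RPKM in pre-metastatic liver. Of 4 endothelial markers, *Stab2* was higher. Hepatocyte markers moved in both directions (3 of 10 higher, 3 lower, median log2 fold change 0.02). The part of cell composition in the changes of the members was not tested.

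In the primary tumor most members were below the liver. In the comparison of the tumor with the pre-metastatic liver of the same mice, 45 members could be tested, and 41 were lower and 4 higher in the tumor (edgeR, adjusted p below 0.05 over 17827 genes). These are 91.1% and 8.89% of the members tested, beside 40.5% of all genes called as lower and 43.8% as higher, 84.3% in all. With the *Ugt1a* rows counted as 1 locus, 34 of 38 loci were lower. Only 31 members had at least 10 counts in 5 or more tumors, so members that passed the count minimum through the liver alone had to differ. *Mgst2* passed it through the tumors, with 589 to 1438 counts there and 1 to 22 in pre-metastatic liver. Between tumors and pre-metastatic livers, 38 members, or 31 loci, did not overlap downward and 4 did not overlap upward (14.5% and 55.8% of all genes, 70.2% in all). Of the 65 members, 35 averaged at least 10 RPKM in pre-metastatic liver and 15 in the tumor, 8 of these 15 being rows of the *Ugt1a* locus.

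**Figure D4:**
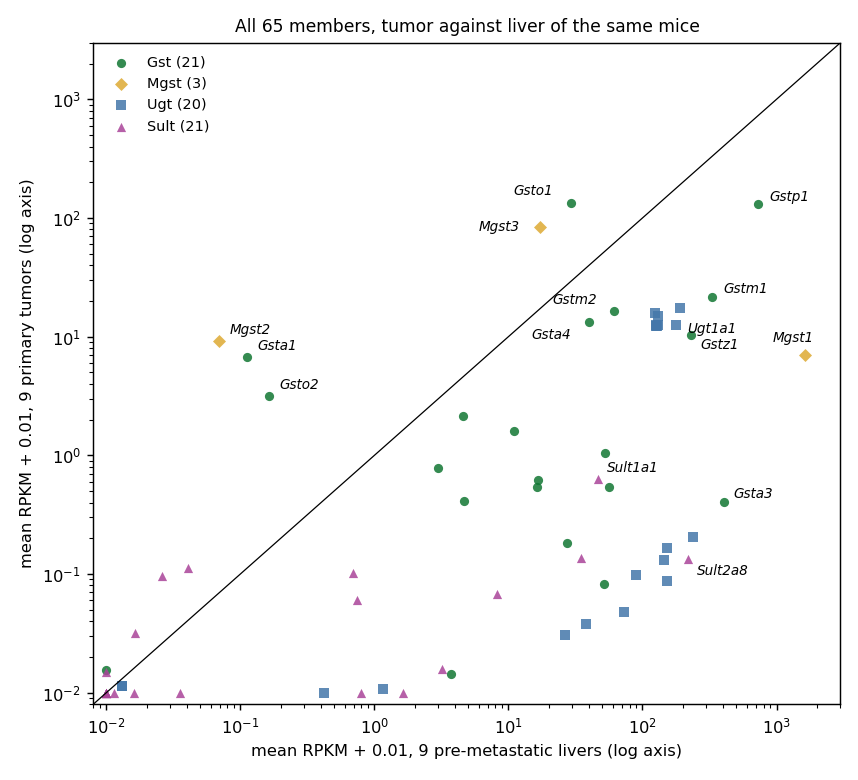
Mean RPKM + 0.01 of all 65 members in the 9 pre-metastatic livers (horizontal, log axis) and in the 9 primary tumors of the same mice (vertical, log axis), with symbols by family and the line of equal levels. Members above the line include *Gsto1*, *Mgst3*, *Mgst2*, *Gsta1* and *Gsto2*, while *Mgst1*, the most abundant in liver at 1632 RPKM, averaged 7.01 RPKM in the tumors.

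In the tumor, *Gsto1* took the first place among cytosolic glutathione transferases that *Gstp1* held in control (29.3%) and pre-metastatic liver (35.1%). *Gsto1* and *Gstp1* made up 39.1% and 37.9% of its cytosolic *Gst* RPKM. *Gsto1* measured 113 to 151 (median 138) RPKM in the tumors, above every pre-metastatic and every control liver (at most 42.7 and 63.7 RPKM). Against pre-metastatic liver its log2 fold change was 1.03 ± 0.11 (edgeR adjusted p = 6.25e-08). Against control liver it was 0.29 ± 0.11 (adjusted p = 0.0218), a call lost without C6 or C7 (adjusted p = 0.0676 and 0.0738), without tumors M2, M10 and M12 (0.0609), with RLE scaling (0.0504) and in mice of the early phase (0.225). The ratio of mean RPKM to control liver was larger, 2.60, because TMM scaling, which corrects for the few genes that fill a liver library, was not applied to RPKM: with library totals alone, the median log2 fold change of all genes moved from 0.09 to 1.27 for tumor against pre-metastatic liver and from 0.18 to 1.26 against control liver. The members called as higher and lower numbered 4 and 41 against pre-metastatic liver under either scaling.

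*Mgst2* and *Mgst3*, whose proteins can make leukotriene C4 or reduce lipid peroxides, were the main membrane-bound members of the tumor. *Mgst3* measured 60.3 to 124 (median 79.7) RPKM in the tumors against 13.5 to 20.1 RPKM in pre-metastatic liver (log2 fold change 1.11 ± 0.14 (SE), edgeR adjusted p = 2.70e-07) and held 83.8% of the tumor's *Mgst* RPKM. *Mgst2* measured 5.86 to 13.2 (median 8.69) RPKM in the tumors and was at most 0.225 RPKM in any liver (log2 fold change 6.05 ± 0.47 (SE), edgeR adjusted p = 3.00e-10). Against control liver *Mgst2* and *Mgst3* were higher too (log2 fold changes 6.56 and 0.99, edgeR adjusted p = 4.37e-10 and 0.000131). *Mgst1* fell to 3.53 to 11.5 (median 6.10) RPKM (log2 fold change -9.02 ± 0.32 (SE), edgeR adjusted p = 2.78e-15), with M10 and M12 highest. *Gsto2* measured 1.96 to 5.31 (median 2.72) RPKM in the tumors, above all livers (log2 fold change 3.17 ± 0.31 (SE), edgeR adjusted p = 8.13e-09).

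Other members remained measurable in the tumors at lower levels. *Gstp1* measured 108 to 145 (median 133) RPKM, the 9 tumors lying close together, and was 5.59 times lower in mean RPKM than in pre-metastatic liver (log2 fold change -3.64 ± 0.21 (SE), edgeR adjusted p = 2.18e-12). *Gstm1* measured 10.2 to 51.7 (median 14.8) RPKM and *Gstm2* measured 7.76 to 30.1 (median 14.6) RPKM, and tumors M2 and M4 were the highest for both. *Gsta4*, which conjugates hydroxynonenal, measured 7.08 to 19.9 (median 14.1) RPKM, and *Gstz1* measured 8.51 to 14.01 (median 9.66) RPKM. The *Ugt1a* locus averaged 13.8 ± 3.70 RPKM over its 8 rows, with M2 highest at 22.7 RPKM.

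*Gsta1* split the tumors. It was at 25.6, 21.3, 6.73 and 6.46 RPKM in M12, M1, M5 and M10 and at most at 0.213 RPKM in the other 5 tumors, and *Gsta2* was highest in the same 4. In the livers *Gsta1* reached at most 0.581 RPKM. Against control liver it was called as higher (log2 fold change 4.06 ± 1.71, edgeR adjusted p = 0.0385), and the call was lost in 6 of the 14 fits without 1 library (C1, C4, C6, C7, M1 or M12; largest adjusted p = 0.0774), without tumors M2, M10 and M12 (0.0586), and in mice of the early phase (log2 fold change 1.92, adjusted p = 0.295). Its level is uncertain, since 80.6% of its 100-base stretches occur in other genes, mostly *Gm3776* and *Gsta2*. *Sult2b1*, a cholesterol sulfotransferase, was called as higher than in control liver as well, at 0.0186 to 0.226 RPKM in the tumors and 0 to 0.0297 RPKM in control liver (log2 fold change 2.64 ± 0.94 (SE), edgeR adjusted p = 0.0167). It held 2 to 25 counts per tumor and 0 to 3 per control liver. It passed the count minimum through the tumors alone, so it had to differ. Without control liver C6 its log2 fold change was 4.13.

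Genes of the *Ugt2* and *Ugt3* families and most sulfotransferases were near 0 in the tumors. The 12 *Ugt2* and *Ugt3* genes together summed to 0.0703 to 3.04 RPKM (median 0.148) in the tumors, against 474 to 1418 RPKM in pre-metastatic liver, and the 21 *Sult* genes to 0.501 to 2.70 RPKM against 165 to 538 RPKM. *Ugt2a3* was 0.208 RPKM in M12 and 0.1000 RPKM in M10 and at most 0.0227 RPKM in the others (log2 fold change -11.98 ± 0.65 (SE), edgeR adjusted p = 9.66e-13). Without tumors M2, M10 and M12 its log2 fold change was -15.74. The 6 tumors left held at most 1 count each, so the size of this fall is uncertain. *Ugt2b1* measured 0 to 0.333 (median 0.0136) RPKM in the tumors and *Ugt2b35* measured 0 to 0.142 (median 0.00569) RPKM (log2 fold changes -11.98 and -11.51, edgeR adjusted p = 8.50e-11 and 1.78e-13). *Ugt2b34* measured 0 to 0.310 (median 0.0125) RPKM, *Ugt2b5* 0.00913 to 0.747 (median 0.0472) RPKM and *Sult2a8* 0.00846 to 0.494 (median 0.0456) RPKM in the tumors. *Ugt2b36* measured 0.0101 to 0.755 (median 0.0284) RPKM. The log2 fold changes of *Sult2a8*, *Ugt2b36* and *Gsta3* were -11.84, -11.35 and -11.14 (edgeR adjusted p = 2.37e-10, 1.77e-10 and 1.56e-11). *Ugt3a1* and *Ugt3a2*, whose proteins use other sugars than glucuronic acid, measured at most 0.0688 RPKM, in M10, and 0.663 RPKM, in M12 (log2 fold changes -11.34 and -11.35, edgeR adjusted p = 3.31e-15 and 2.05e-10). *Sult1a1* kept 48.1% of the tumor's small *Sult* total, at 0.156 to 2.08 (median 0.309) RPKM (log2 fold change -7.45, adjusted p = 1.65e-10). *Sult2a7*, *Sult3a1* and *Ugt2b37* were at 0 in every tumor, and against the level that 3 counts per library would give, their mean RPKM was at least 27.6-fold, 17.5-fold and 14.5-fold lower than in pre-metastatic liver. The figure for *Sult3a1* rests on liver M6: without it, the mean in pre-metastatic liver was 0.227 RPKM and the bound at least 5.07-fold.

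For several of these genes, what remained was highest in M10 and M12, the tumors with the most hepatocyte marker RNA. The 10 hepatocyte markers summed to 0.264% and 0.438% of the liver of the same mouse in M10 and M12, and to 0.0115% to 0.0867% in the other 7 tumors. *Ugt2b36* was at 0.259% and 0.393% of its own liver in M10 and M12 and at most at 0.0407% elsewhere. *Ugt3a2* was at 0.202% and 0.458% there and at most at 0.0316% elsewhere. *Sult2a8* was at 0.146% and 0.395% there and at most at 0.0744% elsewhere. *Gstp1*, by contrast, was at 11.4% to 42.8% of the liver of the same mouse, and M10 and M12, at 16.4% and 26.8%, lay inside that range. The fitted fold changes of the liver-type genes therefore depend on these tumors: without M2, M10 and M12 the log2 fold change of *Ugt2b36* went from -11.35 to -14.03, that of *Sult1d1* from -9.27 to -13.92, that of *Sult1b1* from -8.24 to -13.00 and that of *Gsta3* from -11.14 to -12.71, while the counts of 41 lower and 4 higher members did not change. In the 6 tumors left, *Ugt2b36*, *Sult1d1* and *Sult1b1* held at most 9, 2 and 1 counts, so the sizes of their falls are uncertain. *Sult1b1* and *Sult1d1* were highest in M2, at 0.487 and 0.729 RPKM, the tumor with the most *Epcam*. The part of normal gut tissue in this was not tested.

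**Figure D5:**
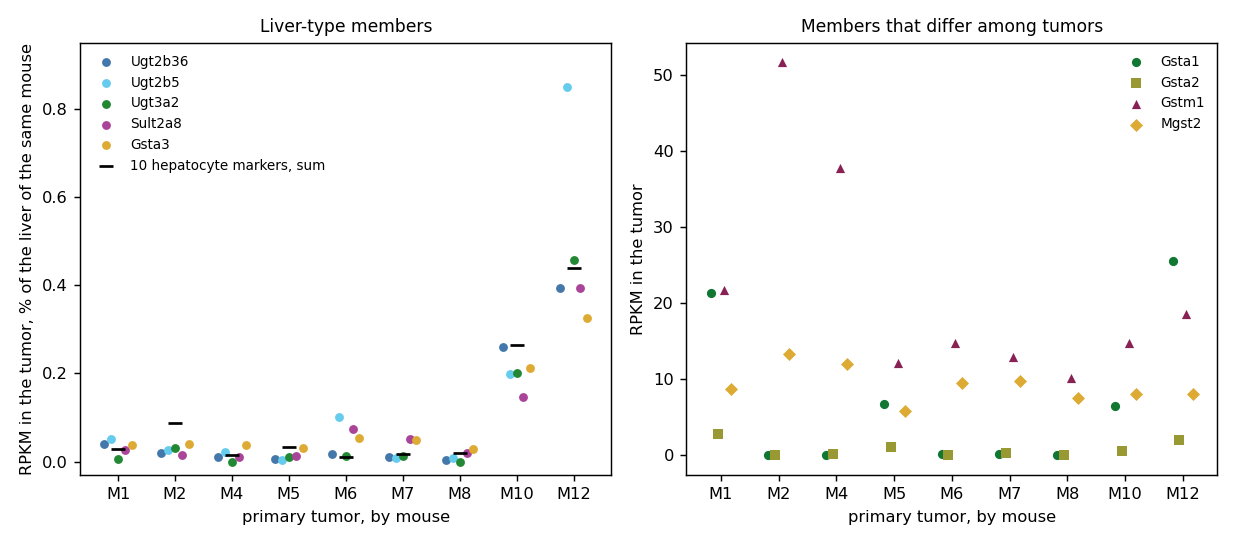
Left, RPKM in each primary tumor as a percentage of the liver of the same mouse for 5 liver-type members and, as black dashes, for the sum of 10 hepatocyte markers; right, RPKM of 4 members in each tumor, on linear axes. M10 and M12 stand above the other tumors on the left, and *Gsta1* is at 6.46 to 25.6 RPKM in M1, M5, M10 and M12 and near 0 elsewhere.

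Against control liver, the 9 tumors gave 49 members tested, 43 lower and 6 higher (edgeR, adjusted p below 0.05). With the *Ugt1a* rows counted as 1 locus, 36 of 42 loci were lower. Over all 19320 genes tested, 38.1% were lower and 44.2% higher, 82.3% in all. The groups did not overlap for 40 members (33 loci) downward and 4 upward, beside 17.1% and 56.4% of all genes, 73.5% in all. Here too, members that passed the count minimum through 1 group alone had to differ. *Sult2a7*, for example, held 29 to 117 counts in control liver and 0 in every tumor. This comparison shares its tumors with the one above. The 6 higher members were *Mgst2*, *Gsta1*, *Sult2b1*, *Gsto2*, *Mgst3* and *Gsto1*. *Gsto2* measured 1.96 to 5.31 RPKM in the tumors against 0.197 to 0.558 RPKM in control liver (log2 fold change 1.86 ± 0.30 (SE), edgeR adjusted p = 2.67e-05). The largest falls were those of *Ugt2a3* (-12.00, adjusted p = 9.59e-12), *Ugt2b35* (-11.75, 2.18e-12), *Sult2a8* (-11.52, 3.53e-10) and *Ugt3a1* (-11.50, 9.82e-14) on the log2 scale. *Ugt2b36*, *Ugt2b5*, *Ugt2b34* and *Ugt2b1* followed with log2 fold changes of -11.42, -11.37, -11.36 and -11.18 (edgeR adjusted p = 4.85e-09, 1.40e-09, 5.84e-10 and 4.51e-10). The mean RPKM of *Gstm2* in the tumors was 0.594 of that in control liver and 0.266 of that in pre-metastatic liver, in which it had risen. *Gstt2* and *Sult1d1*, which had fallen in pre-metastatic liver, were 98.2 and 945 times lower in mean RPKM than in control liver and 27.7 and 277 times lower than in pre-metastatic liver. The ratios of *Sult1d1* rest on tumor M2: without it they were 2382 and 699. All these ratios are of RPKM, to which TMM scaling was not applied. With it, the fitted log2 fold changes against control and pre-metastatic liver were -1.84 and -3.07 for *Gstm2*. They were -7.69 and -5.95 for *Gstt2*, and -10.92 and -9.27 for *Sult1d1*.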

How the data were processed

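Poly(A) RNA-seq libraries of 23 tissues were read from a single table of 48895 genes. The authors made its counts per gene from reads that were aligned to mm10; the submitters' processing notes name HISAT, HISAT2 and HTSeq 0.6.0, and the counting options and strand setting are not given in the sources used here. The RPKM values deposited beside them were each count divided by gene length and library total, which recomputation matched. Library totals were 51064615 to 60393702 in control liver, 44587556 to 79773163 in pre-metastatic liver and 47005276 to 70884436 in the tumors. Groups came from the labels, which give no batch. No pair of libraries agreed within counting noise.

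Counts were tested with edgeR 4.0.16 (R 4.3.3): TMM factors, the quasi-likelihood test, and Benjamini-Hochberg adjustment over every gene that reached 10 counts in 5 or more libraries (9 or more for tumor against pre-metastatic liver). Replicates are mice. Scripts were tested on simulated data. Alternatives were DESeq2 1.42.0, other scaling factors, no count minimum, single libraries left out, the clock phase, the mouse as a block and, chosen after seeing the data, tumors M2, M10 and M12 left out. The numbers pair tumor and liver because the labels give both to the same mouse: the differences of each library from its group mean, over 17827 genes, correlated within a mouse at -0.03 to 0.19 (mean 0.07), against -0.01 between mice. Values are given for the 8 largest called changes in each direction of each comparison, for the 3 most abundant members of each family in livers and in tumors, and for members whose call changes with the block or the early phase; other members are summarised. Members and gene lists were chosen with earlier results of these data known. Promoter sequences came from RefSeq (GRCm38.p6) and matched 57 members. Some list genes and a motif are not reported here.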

Additional observations from a re-analysis of the deposited data

Results flagged for a closer look

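Dixon's test on log2(RPKM + 1) was run on 101 groups of named members, and 10 held a library far from the rest of its group; chance alone gives about 1 in 20. Among control livers, *Gstm1* was 576 RPKM in C5 (others 245 to 274), *Sult1a1* was 147 RPKM in C1 (others 81.3 to 95.0) and *Ugt2b35* was 33.7 RPKM in C4 (others 46.8 to 53.5). Among pre-metastatic livers, *Sult2a8* was 11.4 RPKM in M6 (others 83.3 to 429) and *Sult2b1* was 0.204 RPKM in M12 (others at most 0.0183). Among tumors, *Ugt2a3* was 0.208 RPKM (others at most 0.100) and *Ugt2b35* 0.142 RPKM (others at most 0.0546) in M12, the tumor with the most hepatocyte marker RNA. *Sult1d1* was 0.729 RPKM in tumor M2 (others at most 0.246), *Sult1c2* was 0.0385 RPKM in tumor M10 (others at most 0.0125) and *Gstt3* was 0.170 RPKM in tumor M6 (others 0.357 to 0.528). The cause of these values was not tested.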

How the results depend on the processing

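In pre-metastatic against control liver the main counts were 5 members higher and 8 lower. The lower count moved to 14 in the 9 early-phase livers and to 16 with the phase as a covariate, where *Ugt1a* rows of the same reads add calls (8 and 9 loci with these counted once, and 10.7% and 13.6% of all genes lower, against 13.3% without the phase), and to 5 when a log2 fold change of at least 1 was asked for; a part of each change follows from the construction (fewer livers, a stricter rule), and the cause was not tested further. Leaving out 1 library gave 4 to 7 higher and 7 to 9 lower members. DESeq2 gave 6 and 8. For tumor against pre-metastatic liver, every fit that left out 1 mouse gave 4 and 41, as did the replicate block (paired by mouse), which changed no call; without a count minimum there were 6 and 46, and DESeq2 gave smaller fitted falls for *Ugt3a2* (-4.24 against -11.35) and *Sult1b1* (-4.40 against -8.24). For tumor against control liver, leaving out 1 library gave 4 to 6 higher and 43 lower members, and leaving out tumors M2, M10 and M12 gave 4 and 43. Of 1448 values of single genes under an alternative, 1400 kept direction and call, 28 lost the call, 16 gained it and 4 reversed. The reversed ones were uncalled liver differences near 0: *Gsta3* went to -0.0247 in the early phase, *Mgst1* to -0.0144 without C5 (its range over left-out libraries was -0.0144 to 0.135), *Mgst3* to 0.0292 without C7 (range -0.205 to 0.0292) and *Ugt2b36* to 0.0879 without C5 (range -0.163 to 0.0879). Depth limits the statements on members with a few counts per library, such as *Gsto2* and *Ugt2b37* in liver and the *Ugt2* and *Sult* genes in tumors.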
